A study of Mus musculus with 10 samples.

Results

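Genes of 3 families of substrate adaptors, the Kelch-like (Klhl), Kelch repeat and BTB domain containing (Kbtbd) and potassium channel tetramerization domain containing (Kctd) genes, were examined in mouse male germ cells. The members were all genes of the deposited expression table whose symbol begins with Klhl, Kbtbd or Kctd followed by a digit. There were 55 of them among the 15507 genes listed, made up of 29 Klhl, 18 Kctd and 8 Kbtbd genes, on 17 chromosomes with 2 genes on the X chromosome. The study compared 5 wild-type (WT) mice with 5 homozygous GRTH-KI (KI) mice, all 45 days old. In KI mice the mouse gene Ddx25, which encodes the RNA helicase GRTH of male germ cells, is replaced by the human gene bearing R242H. Germ cells were dispersed from the testes of each mouse with collagenase and trypsin as a mixed fraction of spermatogonia, spermatocytes and spermatids, and 1 RNA-seq library was made per mouse. The strain background is not given in the sources used here.

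The proteins of these families bring substrates to the CUL3 ubiquitin ligase. A BTB domain at one end of the adaptor binds CUL3, a Kelch propeller or another domain at the other end holds the substrate, and the RING protein RBX1, carried by CUL3, recruits the ubiquitin-conjugating enzyme. The ligase is switched on when NEDD8 is attached to CUL3 and switched off when the COP9 signalosome removes it, and CAND1 then lets the cullin exchange one adaptor for another. In the testis the best known member is KLHL10, a germ cell protein of late spermatids that binds CUL3 and is needed for male fertility in mice. KCTD19, another testis member, is a nuclear protein of meiosis. Not every Kctd protein works through CUL3, since some are subunits of GABA-B receptors or repressors of transcription.

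The values are normalized counts, that is reads per gene divided by a size factor for each library. Between 12722086 and 16422347 reads fell on genes per library, and 3 reads corresponded to 2.61 to 3.62 normalized counts. The first principal component held 74.1% of the variance and separated the genotypes, and the second held 9.75% and separated libraries 1 to 3 from libraries 4 and 5 in both genotypes. Ddx25 was at 5198 to 11101 normalized counts in WT, at 146, 194 and 161 in KI libraries 1 to 3, and at 2.88 and 1.84 in KI libraries 4 and 5. The study also lists a different mean read quality for these sets, and what sets them apart was not tested. Because of this split, results were also computed within each set of libraries. A log2 fold change is given for KI against WT on log2(value + 1), with its standard error (SE) from limma, and a change was called at a Benjamini-Hochberg adjusted p under 0.05 over the 15389 genes tested with a fold change of at least 1.5.

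All 55 members passed the low-value filter, as did most genes listed (15389 of 15507). Between 15487 and 15501 of the listed genes had a read in each library, so passing was nearly fixed in advance. Genes of these families that are not listed were not examined. Of the 55 members, 4 fell in KI, namely Klhl10, Klhl28, Klhl31 and Kctd9, and the other 51 were not called. The share lower among all genes tested was 8.22%, and 4 of 55 was near it. No member was called higher by limma, where 6.13% of all genes were, although 8 members were higher at an unadjusted p under 0.05, beside 16.2% of all genes. edgeR and DESeq2 on the recovered reads also called 0 members higher. The counts depended on scaling, for the members and for all genes. On library totals 3 members were lower and 7 higher, beside 789 and 2144 of the 15389 genes. On round spermatid markers 3 members were lower and 13 higher, beside 609 and 3871 genes. The median log2 fold change of all genes was 0.25 on library totals and 0.42 on round spermatid markers. With the adjusted p alone, 6 members were lower and 2 higher, beside 13.3% and 9.65% of all genes. The groups of 5 libraries did not overlap for 6 members lower in KI and 2 members higher, beside 10.9% and 6.8% of all genes. With the replicate number as a block, 5 members were called lower and 1 higher, beside 8.73% and 6.93% of all genes.

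**Figure D1:**
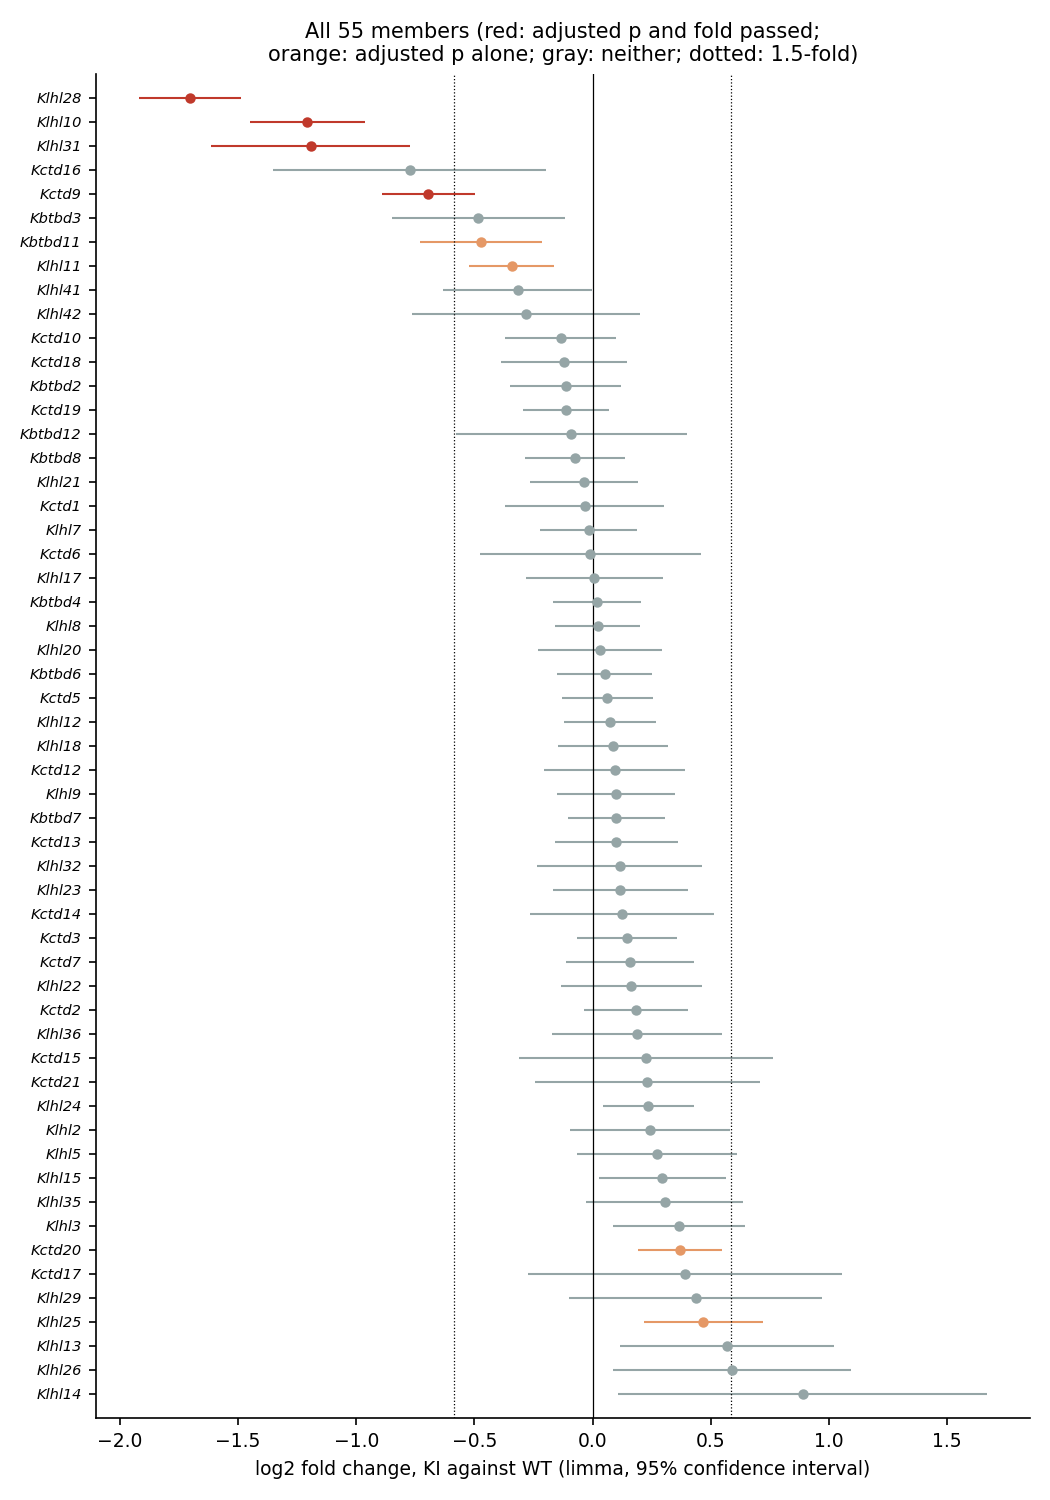
Log2 fold change of KI against WT for all 55 members, ordered from lowest to highest, with 95% confidence intervals from limma and dotted lines at 1.5-fold in each direction. The 4 members in red passed both thresholds and lie on the left, 4 in orange passed the adjusted p alone, and the remaining members in gray are spread on both sides of 0.

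Klhl10 (chr11:100441924-100457024 on the plus strand, mm10) was the most abundant member per length in WT. The WT libraries held 9360.1, 10387, 10055, 7869 and 7925 normalized counts. In KI the libraries held 3982, 4400.2, 4027, 4159 and 3164. Every KI library was below the lowest WT library. The mean fell from 9119 ± 1176 to 3946 ± 467 (SD, n = 5), a log2 fold change of -1.21 with an SE of 0.11 (adjusted p = 2.31e-06, limma). Within libraries 1 to 3 the log2 fold change was -1.26, and within libraries 4 and 5 it was -1.12. No annotated protein-coding gene or long noncoding RNA of the types searched overlapped Klhl10, Klhl28, Klhl31 or Kctd9 (GENCODE vM21). Other gene types, such as pseudogenes and small RNAs, were not searched. In these bulk libraries, fewer cells that express a gene and less RNA of it per cell cannot be told apart.

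Stage markers differed in how far they moved. All 11 elongating spermatid markers were called lower in KI, with a median log2 fold change of -2.50. Their summed level was 264679 to 470158 normalized counts in WT against 39419 to 76566 in KI. The study describes KI mice as without elongating spermatids, as their round spermatids do not elongate. It also cites earlier work in which GRTH bound the mRNAs of Tnp2 and Prm2, both among these markers. Of 13 round spermatid markers, 1 was called lower and 7 were lower by the adjusted p alone, with a median of -0.41 and sums of 61015 to 70653 against 39200.3 to 58803. None of the 10 spermatocyte markers was called, 1 was lower by the adjusted p alone, and the sums were 14784 to 21456 and 13921 to 19087. Of 9 spermatogonium markers none was called and 1 was lower by the adjusted p alone, with sums of 2146 to 2908 and 2467 to 2882. No stage marker was at 0 in all libraries. Their part in the fall of Klhl10 and of the other members was not tested.

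By counts, which also depend on the length of each gene, Klhl10 made up 22.7 ± 2.28% (SD, n = 5) of the normalized counts of all members in WT. In KI it made up 11.6 ± 1.30%, and the highest KI library, at 12.9%, was below every WT library. The summed level of the 55 members was 40002 ± 1418 in WT and 33916 ± 1043 in KI. As a share of all normalized counts of a library, it was 0.251 ± 0.004% in WT and 0.249 ± 0.007% in KI. The ranges of this share overlapped, so it did not show the fall seen in the sums. Without Klhl10 the sums were 30883 ± 707 and 29969 ± 975, and the ranges of the groups overlapped, at 30029.9 to 31476 and 29090.3 to 31451. Klhl10 thus made up most of the difference between the sums of the families.

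Kctd19 (chr8:105382807-105413502 on the minus strand), the meiotic member, was close to Klhl10 in WT counts before division by length. The WT libraries held 10542, 10441, 9496, 9623 and 9170.1 normalized counts, and the KI libraries 8756, 9311, 8771, 9533 and 9152. The groups overlapped. Up to 56 exonic bases are shared with Plekhg4 on the other strand. The log2 fold change was -0.11 with a 95% confidence interval of -0.29 to 0.07 (adjusted p = 0.381, limma), so a fall as large as that of Klhl10 lay outside the interval. Its sign turned positive when libraries were scaled to their totals, at 0.12, or on round spermatid markers, at 0.28. The ratio of Klhl10 to Kctd19 counts, which does not depend on scaling and is not corrected for length, was 0.925 ± 0.0992 in WT and 0.434 ± 0.0509 in KI, with ranges of 0.818 to 1.06 and 0.346 to 0.473.

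**Figure D2:**
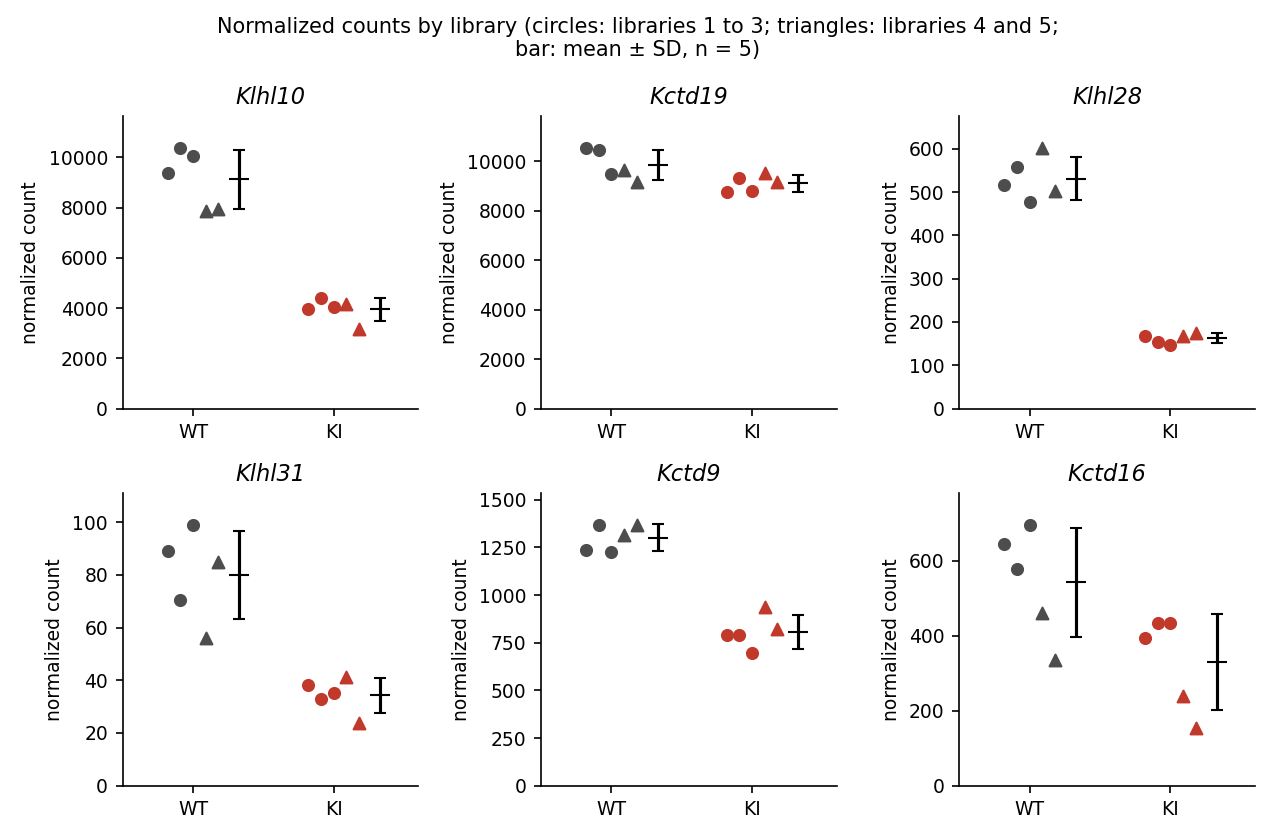
Normalized counts of 6 members in each library, with WT in gray and KI in red, libraries 1 to 3 as circles, libraries 4 and 5 as triangles, and the mean ± SD of 5 libraries as a bar. KI points lie below all WT points for Klhl10, Klhl28, Klhl31 and Kctd9, while those of Kctd19 and Kctd16 overlap with WT.

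Klhl28 (chr12:64942440-64965536 on the minus strand) had the lowest log2 fold change of all members. Its WT libraries held 516, 557, 478, 603 and 503 normalized counts. Its KI libraries held 168, 154, 146, 168 and 174. The groups were far apart, with the highest KI library below every WT library. The log2 fold change was -1.71 with an SE of 0.10 (adjusted p = 3.88e-08, limma), and the mean in KI was 30.5% of that in WT. Computed within libraries 1 to 3, this value was -1.72, and within libraries 4 and 5 alone -1.68.

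Klhl31 (chr9:77636732-77660122 on the plus strand), whose protein is best known from muscle, was expressed at a low level. WT libraries held 88.9, 70.5, 99.04, 56.2 and 84.7 normalized counts, and KI libraries 38.1, 33.03, 35.01, 41.3 and 23.9. No KI library reached the lowest WT library, and the log2 fold change was -1.19 with an SE of 0.20 (adjusted p = 4.25e-04, limma). In libraries 4 and 5 alone it was -1.11 and the adjusted p was 0.066, above the threshold.

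The start-site windows of these members are shown because these members fell in the same comparison, and because CRE and MYB motifs are found in many promoters used in spermatids and spermatocytes. Each sequence was taken from RefSeq (GRCm38.p6) and runs from 250 bases before to 50 bases after the annotated start, 5′ to 3′ on the strand of the gene. Capitals mark matches, on either strand, to the CRE core TGACG or to the MYB motif TAACNG. Kctd9 was not matched in the promoter table.
Klhl10, chr11:100441674-100441973, plus strand: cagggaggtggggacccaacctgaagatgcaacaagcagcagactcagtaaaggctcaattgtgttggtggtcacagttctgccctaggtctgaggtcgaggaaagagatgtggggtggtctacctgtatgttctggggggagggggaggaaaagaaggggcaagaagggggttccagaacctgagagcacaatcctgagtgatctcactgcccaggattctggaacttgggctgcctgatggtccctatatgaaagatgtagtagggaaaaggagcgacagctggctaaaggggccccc
Klhl28, chr12:64965487-64965786, minus strand: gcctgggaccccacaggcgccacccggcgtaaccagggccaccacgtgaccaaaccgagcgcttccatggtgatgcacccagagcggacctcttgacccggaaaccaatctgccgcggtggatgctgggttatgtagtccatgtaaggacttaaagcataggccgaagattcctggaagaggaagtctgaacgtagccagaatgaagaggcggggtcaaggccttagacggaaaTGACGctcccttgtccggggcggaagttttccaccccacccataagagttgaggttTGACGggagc
Klhl31, chr9:77636482-77636781, plus strand: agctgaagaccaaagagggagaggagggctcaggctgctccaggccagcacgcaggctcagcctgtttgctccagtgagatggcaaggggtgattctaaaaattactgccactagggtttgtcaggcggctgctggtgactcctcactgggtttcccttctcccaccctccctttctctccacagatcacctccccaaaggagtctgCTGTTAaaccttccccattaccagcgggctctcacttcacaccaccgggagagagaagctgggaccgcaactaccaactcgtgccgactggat

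The full CRE TGACGTCA, which contains the CRE core, was in none of these 3 windows, and it was in 1.79% of the 32851 windows of all genes. Klhl28 had 2 CRE cores, whose first bases lay at -16 and 41 from the start, and Klhl31 had 1 MYB match, with its first base at -43. CRE cores were in 20.8% and MYB matches in 23.3% of all windows. For the members, 61 windows of 43 genes were in the table, and 17 of these windows (27.9%) held a CRE core and 12 (19.7%) a MYB match. The G and C content of the printed windows was 54.7% for Klhl10, 58.3% for Klhl28 and 57.00% for Klhl31. The letters were searched as a description of sequence and not as a test of binding.

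Kctd9 (chr14:67716098-67742310 on the plus strand) was the only Kctd gene called. Its WT libraries held 1234, 1367, 1227, 1314 and 1369 normalized counts. KI libraries held 789, 789, 694, 939 and 824. The groups did not overlap, and KI library 4 was the nearest to WT. Its log2 fold change was -0.69 with an SE of 0.09 (adjusted p = 6.17e-05, limma). Kctd9 was the one called member that lost its call under another scaling, since it was -0.47 on library totals, under 1.5-fold, and missed the adjusted p on spermatocyte markers (-0.59, adjusted p = 0.0919) and on round spermatid markers (-0.30, adjusted p = 0.142).

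Kctd16, on chromosome 18, encodes an auxiliary subunit of GABA-B receptors and was named after its values were seen. WT libraries held 644, 577, 696, 459 and 335 normalized counts, and KI libraries 394, 433, 434, 239 and 153. Libraries 4 and 5 were lower than libraries 1 to 3 in both genotypes, and within each set every KI library was below every WT library. Over all libraries the groups overlapped, and the log2 fold change of -0.77 with an SE of 0.27 missed the threshold (adjusted p = 0.0517, limma). With the replicate number as a block the value was the same with an adjusted p of 9.77e-05, and with a term for the set of libraries it was 1.60e-04. The log2 fold change was -0.60 in libraries 1 to 3 (adjusted p = 1.62e-04, limma) and -1.03 in libraries 4 and 5 (adjusted p = 0.014). Kctd16 was called lower by DESeq2, with edgeR's TMM factors, on spermatocyte markers and with a pseudocount of 10. It was also called in some of the fits with 1 library left out. It was not called on library totals, on the upper quartile or by edgeR, and on round spermatid markers it was -0.38 (adjusted p = 0.127). A difference of the KI effect between the sets was not detected for this gene (interaction -0.43, adjusted p = 0.399). Annotated genes overlap Kctd16 on the other strand, and the sources used here do not say whether reads were counted by strand.

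Klhl11 (chr11:100457122-100472782 on the minus strand) is the neighbour of Klhl10. The genes point at each other and are 97 bases apart, so neither lies in the other's annotated span. WT libraries held 1157, 1111, 1053, 942 and 1051 normalized counts, and KI libraries 851, 863, 870.0, 809 and 791. All KI libraries were below all WT libraries, but the log2 fold change of -0.34 with an SE of 0.08 (adjusted p = 0.00793, limma) was under 1.5-fold. The sign turned positive on round spermatid markers, at 0.05. In the same libraries the neighbours thus had log2 fold changes of -1.21 and -0.34, and the difference between these was not tested.

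Of the 8 Kbtbd genes, none was called and 1, Kbtbd11, was lower by the adjusted p alone, where the shares of all genes lower were 8.22% and 13.3%. Kbtbd11 was at 590.0 ± 72.1 normalized counts (SD, n = 5) in WT and 427 ± 67.1 in KI, with no overlap between 524 to 712 and 346 to 508. Its log2 fold change was -0.47 with an SE of 0.12 (adjusted p = 0.0105, limma), and on round spermatid markers it was -0.08 (adjusted p = 0.692), and it also missed the adjusted p on library totals, on spermatocyte markers and in libraries 4 and 5 alone. Kbtbd3 had a log2 fold change of -0.48 (adjusted p = 0.0553, limma), and with the replicate block the adjusted p was 0.0246. The other 6 had log2 fold changes between -0.11 for Kbtbd2, an adaptor for a phosphoinositide kinase subunit, and 0.10 for Kbtbd7. Kbtbd6 and Kbtbd7, partners in the degradation of TIAM1, lie 20796 bases apart on the same strand of chromosome 14 and were at 908 ± 102 and 571 ± 66.3 in WT against 937 ± 48.6 and 610.3 ± 34.4 in KI.

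By the adjusted p alone, Kctd20 and Klhl25 were higher in KI. Kctd20 (chr17:28952436-28969549), reported to act in AKT signalling, was at 600.4, 643, 628, 677 and 709.7 normalized counts in the WT libraries and at 831, 822, 883, 878 and 791 in the KI libraries. All KI libraries were above all WT libraries, and the log2 fold change was 0.37 with an SE of 0.08 (adjusted p = 0.00456, limma), under 1.5-fold. Klhl25 (chr7:75848338-75874130), whose protein controls a repressor of translation, held 1012, 1111, 1066, 1397 and 1263 in WT and 1349.5, 1591, 1448, 1943 and 1777 in KI. The groups overlapped, because WT library 4 was above KI library 1, and libraries 4 and 5 were high in both genotypes. The log2 fold change of Klhl25 was 0.47 with an SE of 0.12 (adjusted p = 0.00935, limma). Kctd20 and Klhl25 passed both thresholds on library totals and on round spermatid markers. On spermatocyte markers neither passed the adjusted p, with 0.47 for Kctd20 (adjusted p = 0.162) and 0.57 for Klhl25 (adjusted p = 0.168). Both values were larger than with the deposited size factors. The spermatocyte scaling factors spanned 0.835 to 1.35 in WT and 0.745 to 1.23 in KI, and this spread also enters the adjusted p. In libraries 4 and 5 alone Kctd20 was at 0.27 (adjusted p = 0.288).

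The 3 members with the highest log2 fold changes, named after their values were seen, were genes of low counts that missed the adjusted p. Klhl14, on chromosome 18, had 39.8, 50.9, 14.5, 13.04 and 35.8 normalized counts in WT and 36.3, 53.01, 45.3, 40.4 and 94.8 in KI. KI library 5 stood apart from the other KI libraries, the groups overlapped, and up to 492 exonic bases are shared with an antisense gene. Its log2 fold change was 0.89 with an SE of 0.37 (adjusted p = 0.0955, limma), and with the replicate block the adjusted p was 0.0258. Klhl26 was at 39.6 ± 11.3 in WT and 59.2 ± 14.04 in KI (0.59, adjusted p = 0.0856). Klhl13, an X-linked adaptor for Aurora B kinase, was at 14.5 to 24.1 in WT and 25.96 to 32.2 in KI, with every KI library above WT (0.57, adjusted p = 0.0659). Markers of other testis cells also moved. Of these, 4 of 7 Leydig cell, 5 of 9 macrophage and 4 of 9 peritubular and endothelial markers were called higher, beside 6.13% of all genes. Of 8 Sertoli cell markers, 0 were called. The summed Leydig cell markers were at 10875 to 19504 normalized counts in WT and 15729 to 27046 in KI, and the macrophage markers at 777 to 1031 and 1168 to 1587. The peritubular and endothelial markers were at 385 to 573 and 628 to 1041. This last sum includes Cnn1, which was not tested, and Vwf, whose mean alone went from 171 to 373. Of the 9 tested, 7 had positive log2 fold changes and 2 negative, Myh11 (-0.30) and Tagln (-0.23). No marker of these lists was at 0 in all libraries, and their part in the values of the members was not tested.

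Members were then grouped by the known roles of their proteins. These groups hold 2 to 6 genes, and 14.4% of all genes were called in either direction. A group this small with none called therefore says little about it. Of the 3 adaptors that act on Aurora B in mitosis, Klhl9, Klhl13 and Klhl21, none was called, and Klhl9 and Klhl21 had log2 fold changes of 0.10 and -0.04. Both RhoA adaptors overlapped between genotypes: Kctd10 was at 1575 ± 162 in WT and 1441 ± 211 in KI (-0.13, adjusted p = 0.427, limma), and Kctd13 at 1088 ± 129 and 1174 ± 199 (0.10, adjusted p = 0.61). Kctd10 shares up to 1010 exonic bases with Myo1h on the other strand, and Kctd13 shares up to 65 with Asphd1 on the other strand and up to 199 with Gm21984 on its own strand, so reads within these shared bases are uncertain. Kctd6 and Kctd21, which target the histone deacetylase HDAC1, had values of -0.01 and 0.23. Kctd1 and Kctd15, repressors of AP-2 transcription factors, had -0.03 and 0.23. The related Kctd2, Kctd5 and Kctd17 had 0.18, 0.06 and 0.39, and Kctd12, the relative of Kctd16, had 0.09. Kctd12 shares up to 3686 exonic bases with Gm26778 on the other strand, and Klhl9 up to 661 with Gm26566. Kctd1 and Kctd15 share up to 107 and 104 with genes on the other strand. Reads within these bases are uncertain too. None of these Kctd genes was called.

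A further 6 members act in secretion, signalling and cell division. These were Klhl12, the adaptor for large COPII coats, Klhl20, Klhl22, Kbtbd6, Kbtbd7 and Kbtbd8. Their log2 fold changes lay between -0.07 for Kbtbd8 and 0.16 for Klhl22, with none called, beside 14.4% of all genes. Among the 5 adaptors of actin, muscle and WNK kinases, Klhl31 was called lower, beside 8.22% of all genes. Klhl41, a muscle protein, had -0.32 (adjusted p = 0.143, limma), Klhl17 0.01, and Klhl2 and Klhl3, which target WNK kinases, 0.24 and 0.36. For Klhl3 the adjusted p was 0.0582, and with the replicate block it was 0.017. Klhl24, which controls keratin turnover in skin, was at 745 ± 61.9 in WT and 878 ± 64.7 in KI (0.24, adjusted p = 0.0722, and 0.0227 with the block). Klhl7 was at 947 ± 81.8 and 937 ± 89.4 (-0.02, with a sign that turned under several scalings).

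The remaining 14 members were Kctd3, Kctd7, Kctd14, Kctd18, Klhl5, Klhl8, Klhl15, Klhl18, Klhl23, Klhl29, Klhl32, Klhl35, Klhl36 and Klhl42. They had log2 fold changes between -0.28 for Klhl42, which regulates the microtubule-severing enzyme katanin, and 0.44 for Klhl29. None of them was called or passed the adjusted p, beside 14.4% and 22.9% of all genes. This follows from how the group was formed, since every member that passed had already been described. Klhl15, an X-linked adaptor for a phosphatase subunit, had 0.30 with a 95% confidence interval of 0.03 to 0.56. Kctd7, a gene of childhood epilepsy, had 0.16 with an interval of -0.11 to 0.43. Klhl18, which acts on Aurora A, had 0.09 with an interval of -0.14 to 0.32. Kbtbd4, with 0.02, shares exons with Ptpmt1 and Ndufs3 on the other strand.

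The median log2 fold change was 0.09 over the 55 members and 0.03 over all genes tested, with 20 members negative and 35 positive. By family it was 0.12 for Klhl, 0.10 for Kctd and -0.08 for Kbtbd genes. The Kbtbd median was positive under scalings that raised all genes alike, at 0.14 on library totals and 0.30 on round spermatid markers. After the median of all genes was subtracted, it was -0.11 with the deposited size factors and -0.11 on round spermatid markers. By the same subtraction, the median of all 55 members was 0.06 with the deposited size factors and 0.06 on round spermatid markers. A scaling shifts the log2 values of all genes in a library almost equally, so this subtraction returns nearly the same value by construction. Klhl10, Klhl28 and Klhl31 were called lower under all 6 scalings, with values on round spermatid markers of -0.81, -1.31 and -0.81.

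**Figure D3:**
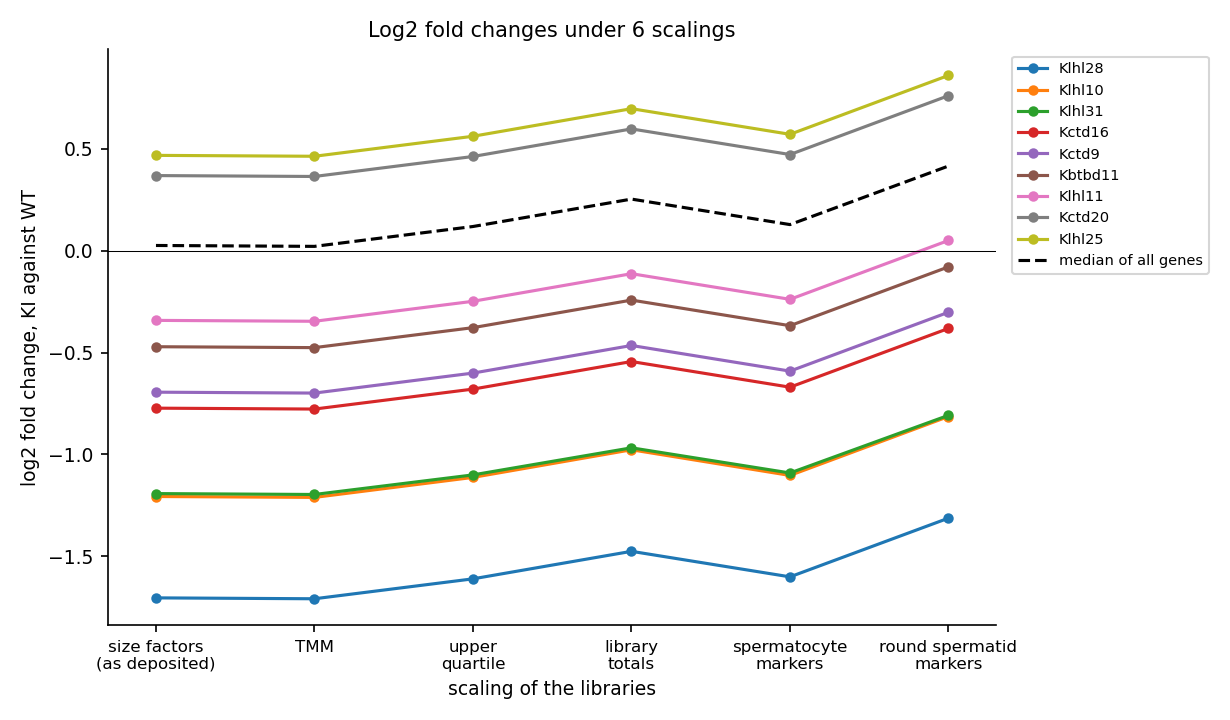
Log2 fold change of KI against WT for 9 members under 6 scalings of the libraries, with the median of all genes as a dashed line. The lines keep their distances and move together because each scaling shifts all genes almost equally. Klhl28, Klhl10 and Klhl31 stay under -0.80 throughout, while Klhl11 crosses 0 on round spermatid markers.

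For an order of levels among the members, counts were divided by the length of the exons in kilobases (GENCODE vM21, 54 members with a length). In WT, Klhl10 was first at 4219.9 ± 544 normalized counts per kilobase and Kctd19 second at 3233 ± 199, and the ranges of these 2 genes did not overlap. They were followed at a distance by Klhl11 at 444 ± 33.7, Kctd13 at 438 ± 52.1 and Kctd10 at 390.0 ± 40.2, whose ranges overlapped from each to the next. In KI, Kctd19 was first at 2987 ± 111 and Klhl10 second at 1826 ± 216. Kctd9 moved from place 8 to place 12 in the order, Klhl28 from 23 to 37 and Klhl31 from 44 to 51. The lowest members in WT were Kbtbd12 at 3.01 ± 0.278 and Klhl29 at 2.71 ± 0.771.

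**Figure D4:**
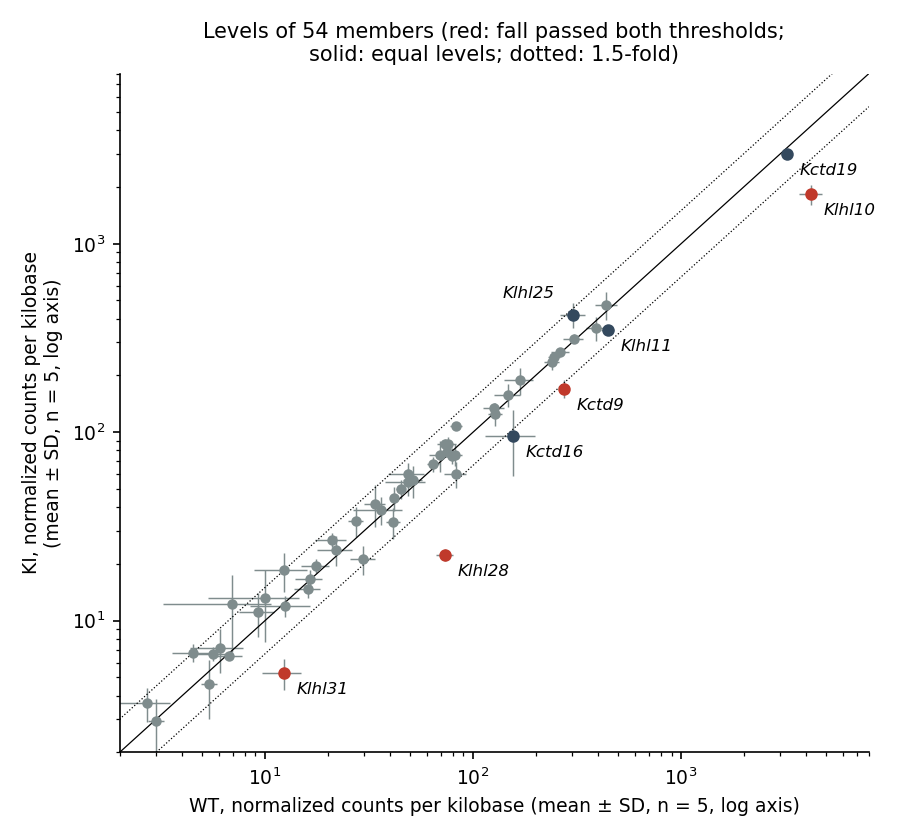
Normalized counts per kilobase of exons in WT (horizontal) and KI (vertical) for 54 members, as mean ± SD of 5 libraries on log axes, with a solid line at equal levels and dotted lines at 1.5-fold. Klhl10 and Kctd19 stand far to the upper right, and the 4 members in red, Klhl10, Klhl28, Klhl31 and Kctd9, lie below the lower dotted line.

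The other genes of the CUL3 pathway were taken from 3 lists with 50 genes in all. Of these, 1 was called lower and 1 higher, beside 8.22% and 6.13% of all genes, and 7 were lower and 1 higher by the adjusted p alone, beside 13.3% and 9.65%. The medians were -0.08 for the core and neddylation list, -0.06 for the recycling list and 0.08 for other BTB adaptors, beside 0.03 for all genes, and on round spermatid markers 0.32, 0.33 and 0.46, beside 0.42. The lower gene was Dcun1d1, which helps to attach NEDD8 to cullins. Dcun1d1 was at 3903, 3966, 3773, 2048 and 2247 normalized counts in the WT libraries and at 1096, 911, 1015, 789 and 667 in the KI libraries. Libraries 4 and 5 were lower than libraries 1 to 3 in both genotypes, and no KI library reached WT. The log2 fold change was -1.79 with an SE of 0.19 (adjusted p = 9.34e-06, limma), and the mean in KI was 28.1% of that in WT.

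In the list of CUL3, its RING partner and the neddylation enzymes, 1 of 13 genes was called lower, beside 8.22% of all genes, 5 were lower by the adjusted p alone, beside 13.3%, and none was higher. Cul3 held 7683, 8011, 6763, 5760.3 and 6697 normalized counts in WT and 5175, 4599, 4797, 6199.6 and 5581 in KI. The groups overlapped, through WT library 4 and KI library 4. Over all libraries Cul3 had a log2 fold change of -0.40 with an SE of 0.11 (adjusted p = 0.0163, limma), under 1.5-fold. Within libraries 1 to 3 it was -0.62, and within libraries 4 and 5 -0.08 (adjusted p = 0.793). The difference between the sets was 0.54 with an SE of 0.15 and did not pass after adjustment (adjusted p = 0.106, limma interaction term). Cul3 missed the adjusted p on library totals, at -0.18, on spermatocyte markers, at -0.30, and on round spermatid markers, at -0.01 (adjusted p = 0.958). Dcun1d3 and Dcun1d4, relatives of Dcun1d1, had log2 fold changes of -0.52 and -0.33, and Ube2f, a NEDD8-conjugating enzyme that works mainly with other cullins, of -0.36, all past the adjusted p and under 1.5-fold. Rbx1 and Nedd8 had 0.12 and -0.08 and did not pass.

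Of 13 genes for the recycling of the ligase, none was called, where 8.22% of all genes were lower and 6.13% higher. By the adjusted p alone 1 of them was lower, beside 13.3% of all genes. This gene was Cops5, the catalytic subunit of the COP9 signalosome, at 3689 ± 252 normalized counts in WT and 2860.5 ± 219.5 in KI (-0.37, adjusted p = 0.00648, limma). Cand1, which exchanges adaptors, had 0.00261 with a 95% confidence interval of -0.31 to 0.32, from -0.18 in libraries 1 to 3 and 0.28 in libraries 4 and 5 (interaction 0.47, adjusted p = 0.135). Among 24 other BTB adaptors, Abtb2 was called higher and none lower, beside 6.13% and 8.22% of all genes. Only Ivns1abp, a Kelch protein outside the numbered names, was lower by the adjusted p alone (-0.26, adjusted p = 0.0323), beside 13.3% of all genes. Abtb2 was at 154, 97.1, 202, 165 and 197 normalized counts in WT and at 316, 307, 321, 259 and 251 in KI. All KI libraries were above all WT libraries, with a log2 fold change of 0.87 and an SE of 0.17 (adjusted p = 0.00202, limma). In libraries 4 and 5 alone this was 0.50 with an adjusted p of 0.12.

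Finally, the KI effect was compared between the sets of libraries. No member passed the interaction test (smallest adjusted p = 0.209, limma), where 0.247% of all genes did. This count was unstable, since the 38 genes became 2 to 438 when 1 library was left out, and on round spermatid markers 2216 genes passed, of which 4 were members. At an unadjusted p under 0.05 there were 3 members, Klhl15, Klhl17 and Klhl36, beside 16.1% of all genes.

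**Figure D5:**
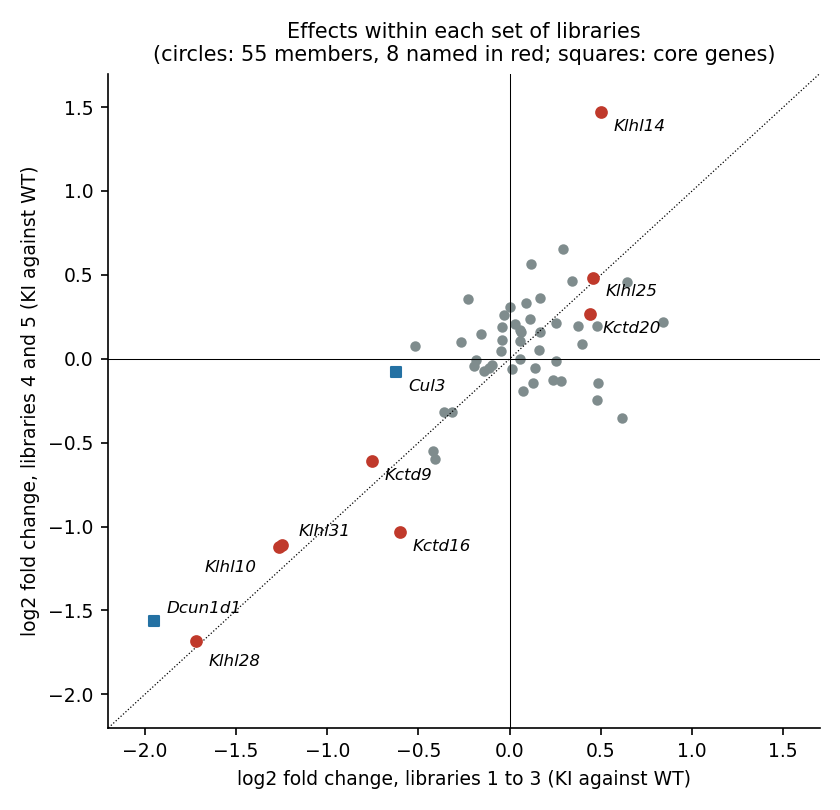
Log2 fold change of KI against WT within libraries 1 to 3 (horizontal) and within libraries 4 and 5 (vertical), with circles for the 55 members (8 of them named, in red), squares for Cul3 and Dcun1d1 and a dotted line at equal effects. Klhl10, Klhl28, Klhl31 and Kctd9 lie close to the dotted line, while Cul3 is near -0.62 in the first set and near 0 in the second.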

How the data were processed

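A library per mouse was made from germ cell RNA of 5 WT and 5 KI mice, and the sample titles and descriptions gave each library its group and number. The authors aligned paired reads with STAR (mm10), quantified RefSeq genes in Partek Flow and divided by DESeq2 size factors before deposit. Divided by the worth of 1 read in its library, the deposited signal was whole to within 0.05 reads for 100% of values under 5000 reads. Replicate libraries differed by more than sampling noise, with a chi-square per degree of freedom of 2.67 to 46.4.

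Genes kept by edgeR's filterByExpr (version 4.0.16) were tested by limma (version 3.58.1, R 4.3.3) with a variance trend on log2(signal + 1), and p-values were adjusted by Benjamini-Hochberg. The authors' fold changes and p-values were not used. edgeR's quasi-likelihood test and DESeq2 (version 1.42.0) on recovered reads, other scalings, filters, pseudocounts of 0.1 and 10, a replicate block, a term for the set of libraries, each set alone and the libraries left out in turn were alternatives. The unadjusted p and the repeats of the interaction fit were added after seeing the data. In simulated data with 200 of 15389 genes changed 2.5-fold, limma recovered 199 with 0 false calls. The changed genes were drawn from those of higher counts, and no difference between the sets of libraries was simulated. Recovery near 1.5-fold, at low counts or with such a split was therefore not measured.

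The genes named were every member called, the 8 members with the highest mean count in WT, not divided by length, Klhl10, Kctd19, Ddx25, Cul3 and each pathway gene called, and every other member named was chosen after its values were seen or through its role group. Members, lists and role groups were chosen with earlier results of these data known. After the genotype means were removed, WT and KI libraries of the same number, as given in the labels, correlated at 0.306, 0.105, 0.280, 0.216 and 0.462. Libraries of the same set and different numbers correlated at 0.0113 to 0.287, so the correlation followed the set as well. All numbers passed the limit of 0.1 set for pairing, and the labels do not say what a number shares. Coordinates are those deposited, for mm10, with 1 base taken from each end position, which otherwise lay 1 base past the RefSeq end for 9615 of 15328 matched genes. Lengths came from GENCODE vM21.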

Additional observations from a re-analysis of the deposited data

Results flagged for a closer look

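In KI library 5, Klhl14 was at 94.8 normalized counts, and the nearest other KI library was at 53.01. The gap was 0.714 of the range of the 5 libraries, above Dixon's 95% critical value for 5 samples. This was 1 flag among 46 groups examined, and chance flags about 5% of groups.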

How the results depend on the processing

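Klhl10 and Klhl28 kept their direction and passed the adjusted p under all 26 alternatives, with log2 fold changes between -1.26 and -0.81 for Klhl10 and between -1.74 and -1.31 for Klhl28. The number of members lower was 3 to 6, with 6 when no fold threshold was set. With the replicate block 5 members were lower and 1 higher, which added Kctd16 and Klhl14. The block changed no other call among the members. Leaving out each library in turn gave 4 to 5 members lower, 0 to 1 higher (1 without WT replicate 2, Klhl14), 1130 to 1296 genes lower, 809 to 1012 higher, and 1 to 2 pathway genes lower (2 without WT replicate 4). The interaction of genotype with the set of libraries was the least stable, at 38 genes and from 2 to 438 with 1 library left out.

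Scaling moved the counts of rises most. On library totals there were 7 members higher, 789 genes lower, 2144 genes higher, 2 pathway genes higher and 157 interactions. On round spermatid markers there were 13 members, 609 genes lower, 3871 higher, 5 pathway genes higher, and 2216 interactions of which 4 were members. The upper quartile gave 1 member higher and 22 interactions, and spermatocyte markers gave 12 interactions. The spermatocyte scaling factors varied widely within each genotype, which can raise an adjusted p without a smaller log2 fold change. Signs turned on library totals for Kctd19 (0.12), Kctd10 (0.0948) and Klhl7 (0.21), on round spermatid markers for Kctd19 (0.28), Kctd10 (0.26), Klhl11 (0.0504) and Klhl7 (0.38), and for Klhl7 also on the upper quartile (0.0771), on spermatocyte markers (0.0867), in libraries 1 to 3 (0.0113), and without WT replicate 2 or KI replicate 5, with values from -0.0547 to 0.0399 as each library was left out. Libraries 1 to 3 alone gave 1 member higher, Klhl26, and 3 pathway genes lower. Libraries 4 and 5 alone gave 472 genes higher and 0 pathway genes higher. A filter at a mean of 50 left 549 genes higher among fewer genes tested. Without a fold threshold there were 2 members higher, 2044 genes lower, 1485 higher and 7 pathway genes lower, an adjusted p under 0.01 left 605 genes higher, and an unadjusted p with the fold gave 2 members higher. Causes other than these constructions were not tested. Counts below about 3 reads were at the limit of depth, and all members were above it in every library, at 11.5 normalized counts or more. Nearly all genes listed had reads in each library, so this does not set the members apart.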
